A study of Mus musculus with 7 samples.

Results

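The FHL and CSRP genes encode small cytoskeletal proteins built almost wholly of LIM domains, and 7 of them were followed here across tenascin-C proficient and tenascin-C deficient mouse fibroblasts: Fhl1, Fhl2, Fhl3, Fhl4, Csrp1, Csrp2 and Csrp3. They were taken by gene symbol, 1 probe set each, from 19937 genes with a single-symbol probe set, and all 7 passed the filter on low signal that left 16801 genes. The members were chosen by the low Fhl1 signal on the knockdown arrays of this same series, to which the relatives of Fhl1 were added by family. The comparison of knockdown with wild type is therefore given for these genes as a description, with no test.

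The data are 7 expression arrays, each of a clone of mouse embryonic fibroblasts that had become immortal spontaneously. Each clone was grown for 2 days in serum before RNA was taken. There were 3 wild-type clones, 2 tenascin-C (Tnc) knockout clones, and 2 clones of wild-type cells that stably carry a hairpin targeting Tnc (knockdown). The labels number the arrays of a group as replicates, and no label says that the clones came from separate animals. P-values therefore reflect only how far these clones differ among themselves, which may be technical in part. The 2 knockout clones differed in sex-linked signals, given below, so their spread is not technical alone. No group with a control hairpin is analysed here. Each clone is 1 array, and values are log2 signals whose array medians lay between 5.38 and 5.49.

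A LIM domain is a pair of zinc fingers that binds other proteins rather than DNA. FHL proteins are a row of LIM domains with little else, and CSRP proteins carry a pair of them. Both families shuttle between actin filaments, focal adhesions and the nucleus, are best known from skeletal, cardiac and smooth muscle, and are also made by fibroblasts under tension. Several are targets of serum response factor (SRF), the factor through which actin assembly controls transcription, which binds a short DNA element called the CArG box.

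The 250 bases before some annotated starts of the 4 members whose knockout and knockdown arrays did not overlap are shown first. The sequences can thus be set beside the values. They come from RefSeq promoters of GRCm38, which hold 10 windows for 6 of the 7 members, and are written along the gene's strand. First and second start number the windows held for a gene. For Fhl1, Fhl2 and Fhl3 the annotated gene reaches further upstream than these windows, so its outermost start is not covered. Capitals mark a CArG box. MCAT elements (CATTCC), read by TEAD factors, were searched as well on both strands.
Fhl1, first start, chrX:56779433-56779682, plus strand: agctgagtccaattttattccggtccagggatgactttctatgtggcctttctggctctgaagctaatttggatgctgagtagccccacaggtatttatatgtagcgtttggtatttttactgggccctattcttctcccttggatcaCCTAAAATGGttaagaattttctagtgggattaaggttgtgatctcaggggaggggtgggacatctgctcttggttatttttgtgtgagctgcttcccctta
Fhl1, second start, chrX:56786277-56786526, plus strand: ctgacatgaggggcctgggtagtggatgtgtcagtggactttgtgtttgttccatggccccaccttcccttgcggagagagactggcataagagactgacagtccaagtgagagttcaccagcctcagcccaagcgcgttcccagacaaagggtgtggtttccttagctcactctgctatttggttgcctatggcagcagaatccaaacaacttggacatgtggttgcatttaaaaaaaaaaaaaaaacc
Fhl3, chr4:124700449-124700698, plus strand: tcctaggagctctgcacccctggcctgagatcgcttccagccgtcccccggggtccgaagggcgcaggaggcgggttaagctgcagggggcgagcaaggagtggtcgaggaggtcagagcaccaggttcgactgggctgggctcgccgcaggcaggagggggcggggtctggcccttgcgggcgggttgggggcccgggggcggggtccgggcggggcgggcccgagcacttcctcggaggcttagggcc
Fhl2, first start, chr1:43196762-43197011, minus strand: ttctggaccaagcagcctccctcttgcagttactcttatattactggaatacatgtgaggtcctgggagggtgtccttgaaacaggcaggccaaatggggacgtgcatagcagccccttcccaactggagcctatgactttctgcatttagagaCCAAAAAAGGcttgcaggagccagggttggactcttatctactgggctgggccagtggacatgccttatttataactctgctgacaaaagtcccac
Fhl2, second start, chr1:43163962-43164211, minus strand: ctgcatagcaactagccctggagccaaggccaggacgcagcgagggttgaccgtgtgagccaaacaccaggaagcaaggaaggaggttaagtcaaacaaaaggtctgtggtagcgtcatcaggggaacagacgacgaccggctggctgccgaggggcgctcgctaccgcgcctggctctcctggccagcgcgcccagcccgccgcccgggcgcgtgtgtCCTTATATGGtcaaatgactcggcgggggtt
Csrp1, first start, chr1:135719813-135720062, plus strand: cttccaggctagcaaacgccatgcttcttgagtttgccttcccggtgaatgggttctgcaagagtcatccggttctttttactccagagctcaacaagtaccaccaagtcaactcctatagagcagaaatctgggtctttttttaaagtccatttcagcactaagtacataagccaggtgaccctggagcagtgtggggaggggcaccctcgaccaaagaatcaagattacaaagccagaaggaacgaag
Csrp1, second start, chr1:135728917-135729166, plus strand: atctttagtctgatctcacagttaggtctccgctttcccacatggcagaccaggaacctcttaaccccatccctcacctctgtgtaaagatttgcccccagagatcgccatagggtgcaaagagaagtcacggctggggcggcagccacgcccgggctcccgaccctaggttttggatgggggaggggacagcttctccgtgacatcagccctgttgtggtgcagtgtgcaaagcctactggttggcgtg
A CArG box lay in the first of the 2 Fhl1 windows, 102 bases before the start next to that window. Both Fhl2 windows held one, 96 and 31 bases before their starts. No exact CArG box lay in the windows of Fhl3, Fhl4, Csrp1 and Csrp3. Of 32851 windows of this length over all genes, 1.47% held one. No MCAT element lay in any of the 10 windows, against 12.6% of all windows. A match describes the letters only, and no binding was measured.

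Fhl1 encodes the founding FHL protein, a scaffold of striated muscle whose human counterpart is mutated in inherited myopathies. Its log2 signal was 10.43, 10.44 and 10.40 on the wild-type arrays, 11.06 and 10.54 on the knockout arrays, and 7.66 and 7.27 on the knockdown arrays. Both knockdown arrays lay far below all the others, with a gap of 2.74 between the lowest wild-type and the highest knockdown array, and both knockout arrays lay just above wild type, by 0.11 at the nearest. Fhl1 (gene identifier 14199, chromosome X, 56731209 to 56793346 in GRCm38, probe set 10599736) had means of 10.42 ± 0.0193 (SD, n = 3) for wild type, 10.80 ± 0.365 (SD, n = 2) for knockout and 7.46 ± 0.277 (SD, n = 2) for knockdown.

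The knockdown mean of Fhl1 was 7.77-fold below wild type (log2 difference -2.96 ± 0.181 SE), the second lowest of all genes tested in this comparison, which is the value the choice of these genes rests on. In that comparison 0.0179% of genes were called lower, and 12.9% had both knockdown arrays below all wild-type arrays. Even on the knockdown arrays Fhl1 stood at or above the 73.4th percentile of all probe sets, so the signal remained well clear of the low end of the array. Fhl1 was 10.1-fold lower in knockdown than in knockout (3.34 ± 0.199 SE), also given without a test. In these bulk RNA samples, fewer cells expressing a gene and less RNA per cell cannot be told apart.

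In knockout, Fhl1 differed from wild type by 0.38 ± 0.181 SE, which did not pass (limma adjusted p = 0.453, 95% interval -0.06 to 0.82). This comparison uses the same wild-type arrays as the one that singled Fhl1 out. Its size rested on knockout array 1: the difference was 0.12 without that array and 0.64 without knockout array 2.

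Fhl3, a relative found in skeletal muscle and at focal adhesions, was the other member low in knockdown. It stood at 9.54, 9.40 and 9.51 in wild type, at 9.43 and 9.59 in knockout, and at 8.75 on both knockdown arrays. The knockdown arrays again lay below all others, by 0.65 at the nearest wild-type array, while knockout and wild type overlapped. Group means were 9.48 ± 0.0739 (SD, n = 3) for wild type, 9.51 ± 0.118 (SD, n = 2) for knockout and 8.75 ± 0.00204 (SD, n = 2) for knockdown. Fhl3 (gene identifier 14201, chromosome 4, 124695964 to 124708611) was thus 1.66-fold lower in knockdown than in wild type (-0.73 ± 0.0855 SE, no test). It was 1.69-fold higher in knockout than in knockdown (0.76 ± 0.0937 SE), which passed narrowly (limma adjusted p = 0.0495).

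That call rests on the choice of arrays and settings. The Fhl3 difference between knockout and knockdown stayed between 0.68 and 0.84 over 17 alternatives, but passed in 2 of them, with adjusted p from 0.0357 to 0.307. Leaving out any 1 of the 7 arrays ended the call. Between knockout and wild type Fhl3 differed by 0.03 ± 0.0855 SE (adjusted p = 0.917, 95% interval -0.18 to 0.24).

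**Figure D1:**
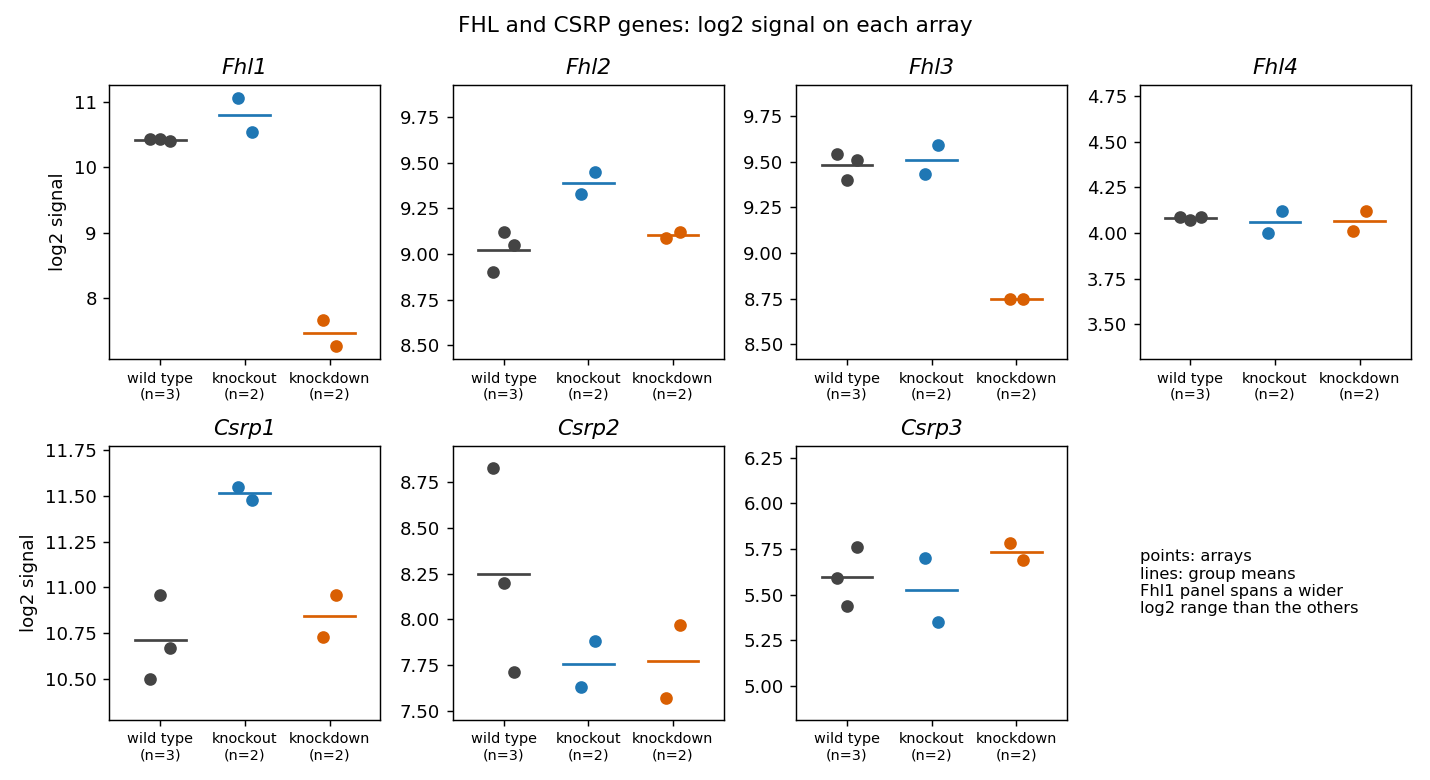
Log2 signal of each member on each array (y axis) by group (x axis), with points for arrays and lines for group means of 3 wild-type, 2 knockout and 2 knockdown arrays; the Fhl1 panel covers a wider range than the others. Fhl1 and Fhl3 are low on both knockdown arrays, Fhl2 and Csrp1 are highest on both knockout arrays, and the groups of Fhl4, Csrp2 and Csrp3 overlap.

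Fhl2 and Csrp1 followed another pattern, with their highest values in knockout. Fhl2 encodes the FHL protein of heart and stressed fibroblasts, a co-regulator that also binds integrins and beta-catenin. It stood at 8.90, 9.12 and 9.05 in wild type, 9.33 and 9.45 in knockout, and 9.09 and 9.12 in knockdown. Both knockout arrays lay above all others, by 0.21 at the nearest, and the knockdown arrays fell within or at the edge of the wild-type range. Fhl2 (gene identifier 14200, chromosome 1, 43123071 to 43198343) was 0.36 ± 0.0914 SE above wild type in knockout (adjusted p = 0.202, 95% interval 0.14 to 0.59) and 0.29 ± 0.1 SE above knockdown (adjusted p = 0.232), neither of which passed over all genes. Its knockdown mean differed from wild type by 0.08 ± 0.0914 SE.

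Csrp1 encodes the CSRP protein of smooth muscle and fibroblasts, which binds alpha-actinin and zyxin on actin bundles. Its values were 10.50, 10.96 and 10.67 in wild type, 11.55 and 11.48 in knockout, and 10.73 and 10.96 in knockdown. The knockout arrays stood clear of the wild-type arrays by 0.52 and of the knockdown arrays by 0.53, and wild type and knockdown overlapped. Csrp1 (gene identifier 13007, chromosome 1, 135720063 to 135752229) was 0.80 ± 0.151 SE higher in knockout than in wild type, or 1.74-fold, without passing over all genes (adjusted p = 0.127, 95% interval 0.43 to 1.17). The gap to knockdown was 0.67 ± 0.166 SE (adjusted p = 0.143), and knockdown differed from wild type by 0.13 ± 0.151 SE. Without any single array the knockout difference of Csrp1 lay between 0.70 and 0.93.

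The 3 remaining members showed no separation of groups. Csrp2, a protein of vascular smooth muscle, stood at 8.83, 8.20 and 7.71 on the wild-type arrays, which spread more widely than its arrays in either deficient group. It was 7.63 and 7.88 in knockout and 7.57 and 7.97 in knockdown, with differences from wild type of -0.49 ± 0.324 SE in knockout (adjusted p = 0.559, 95% interval -1.28 to 0.30) and -0.47 ± 0.324 SE in knockdown. Knockout and knockdown differed by -0.02 ± 0.355 SE (adjusted p = 0.993, 95% interval -0.88 to 0.85), an interval wide enough to hold a change in either direction.

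Csrp3, the muscle LIM protein of cardiac and skeletal muscle Z-discs, stood near the array medians, at 5.59, 5.44 and 5.76 in wild type, 5.70 and 5.35 in knockout and 5.78 and 5.69 in knockdown. It differed from wild type by -0.07 ± 0.142 SE in knockout (adjusted p = 0.855) and by 0.14 ± 0.142 SE in knockdown, and knockout from knockdown by -0.21 ± 0.156 SE (adjusted p = 0.494, 95% interval -0.59 to 0.17). Fhl4, a relative known from testis, read 4.07 to 4.09 in wild type, 4.06 ± 0.0907 (SD, n = 2) in knockout, and 4.01 and 4.12 in knockdown. It stood at the 24.5th to 27.6th percentile of probe sets, near the filter on low signal. Its difference from wild type was -0.02 ± 0.0772 SE in knockout (adjusted p = 0.925) and -0.02 ± 0.0772 SE in knockdown.

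Counted over the family, limma called 0 of the 7 members in knockout against wild type, where 0.167% of all genes were called (0.119% higher and 0.0476% lower). Before adjustment 2 had p under 0.05 (Fhl2 and Csrp1, both higher), against 12.8% of all genes (7.33% higher and 5.5% lower). Both knockout arrays lay above all wild-type arrays for Fhl1, Fhl2 and Csrp1, 3 of 7, against 13.2% of all genes, and below them for 0, against 15.3%. Between knockout and knockdown 1 of the 6 members tested was called, Fhl3, against 0.375% of all genes (0.274% higher and 0.101% lower). Arrays did not overlap for 4 of 7 members, Fhl1, Fhl2, Fhl3 and Csrp1, all higher in knockout, against 45% of all genes without overlap, 17.8% higher and 27.2% lower. Fhl1 alone among them had both knockdown arrays below and both knockout arrays above wild type, as did 1.34% of all genes. The median difference over the 7 members was 0.03 in knockout against wild type and 0.29 between knockout and knockdown, beside -0.03 and -0.05 over all genes. In the knockdown comparison the median was -0.02, beside 0.03. Fhl1 is counted in the 4 of 7 and in the medians that involve knockdown, although its low knockdown signal was the ground for choosing it. These values are therefore descriptions. Over all genes in that comparison 14.1% had an unadjusted p under 0.05 (7.12% higher and 6.99% lower), and 30.5% had arrays without overlap.

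**Figure D2:**
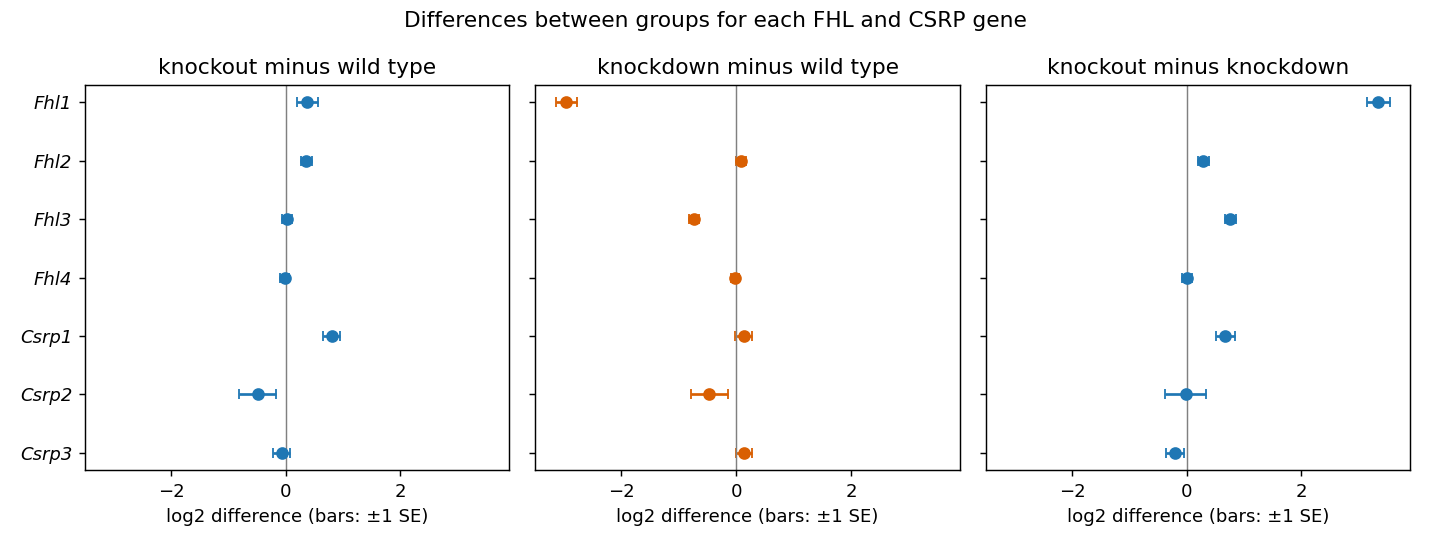
Log2 difference of each member (x axis, points with bars of 1 SE) in knockout against wild type, knockdown against wild type and knockout against knockdown. In knockdown Fhl1 stands at -2.96 and Fhl3 at -0.73, and in knockout Csrp1 at 0.80 is the largest difference from wild type.

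Over the 7 arrays Fhl1 and Fhl3 had a Pearson correlation of 0.96, and so had Fhl2 and Csrp1, while the 4 cross pairs between them lay between 0.20 and 0.32. Correlations of Fhl4, Csrp2 and Csrp3 with the other members lay between -0.54 (Fhl2 with Csrp2) and 0.42 (Fhl4 with Csrp2). These describe the group pattern of 7 arrays rather than independent samples. Across all tested genes, the one most like Fhl1 was another LIM-domain gene: Tes, which encodes testin, a focal adhesion protein that binds zyxin (r = 0.996 over 7 arrays). Bcat1, a branched-chain amino acid transaminase (r = 0.994), Cycs, which encodes cytochrome c (0.992), Osgin2 (0.987) and Gm10033 (0.986) came next. Each of the 5 was low on both knockdown arrays, but by far less than Fhl1, with differences from wild type of -0.49 to -0.74. Without the knockdown arrays the correlations with Fhl1 over the 5 remaining arrays were 0.82 for Tes, 0.97 for Bcat1, 0.95 for Cycs, 0.94 for Osgin2 and 0.64 for Gm10033. Running most against Fhl1 were Esx1 (r = -0.995), Kiz (-0.993) and 2310001K24Rik (-0.992), which were higher in knockdown by 0.20, 0.28 and 0.14. Esx1 and 2310001K24Rik stood between 4.25 and 4.53 on all arrays, near the low end.

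**Figure D3:**
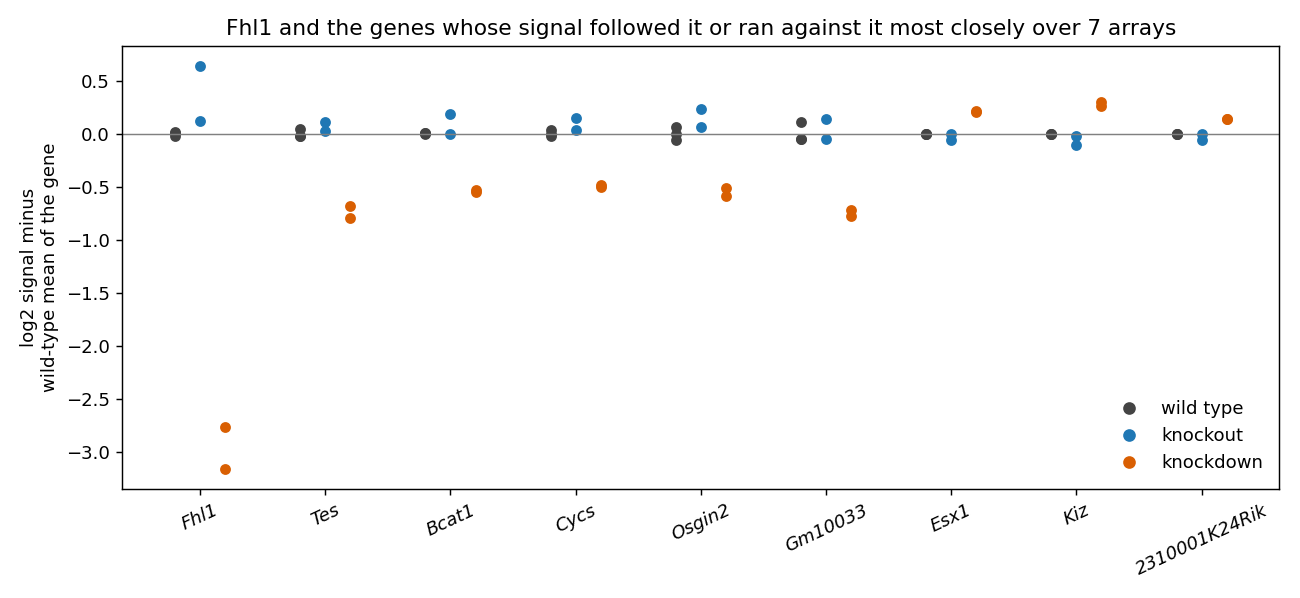
Log2 signal of each array minus the gene's wild-type mean (y axis) for Fhl1, the 5 genes most like it and the 3 most opposed (x axis), coloured by group. Both knockdown arrays of Fhl1 lie about 3 units below wild type, a distance that no other gene shown approaches, and in the last 3 genes the knockdown arrays lie above wild type.

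Tes belonged to the wider list of other LIM-domain genes. It stood at 9.93, 9.93 and 10.00 in wild type, 10.06 and 9.98 in knockout and 9.27 and 9.16 in knockdown. As with Fhl3, the knockdown arrays lay below all others, and knockout overlapped wild type. Tes was 0.80 ± 0.0818 SE higher in knockout than in knockdown, which passed (limma adjusted p = 0.0381), though in 5 of 17 alternatives only. Tes was also singled out above as the gene most like Fhl1 over these same arrays, knockdown included. A difference between knockout and knockdown was favoured by that choice, so the pass is not read as separate evidence. Its difference from wild type was -0.73 ± 0.0747 SE in knockdown (adjusted p = 0.0928) and 0.07 in knockout (adjusted p = 0.728).

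Of 49 other LIM-domain genes tested, limma called 1 higher in knockout and 0 lower, against 0.119% and 0.0476% of all genes. The gene called was Lima1, which encodes the actin-bundling protein EPLIN (0.65 ± 0.0686 SE, adjusted p = 0.0452, called in 4 of 17 alternatives). It stood at 9.62, 9.71 and 9.69 in wild type, 10.29 and 10.35 in knockout and 9.99 and 10.00 in knockdown, so that knockdown lay between the other groups. Arrays were higher without overlap in knockout for 12 of the 49 and lower for 3, or 24.5% and 6.12%, against 13.2% and 15.3% of all genes, with a list median of 0.08. The largest such difference was that of Pdlim1, an adaptor of alpha-actinin, at 2.99 ± 0.584 SE (adjusted p = 0.131). Its wild-type arrays ranged from 6.32 to 8.30. In knockdown 0 were called (unadjusted p under 0.05 in 4 higher and 2 lower, against 7.12% and 6.99% of all genes). The list median there was 0.11, and 12 were higher and 4 lower without overlap. These are 24.5% and 8.16% of the list, against 17.5% and 12.9% of all genes. Lhx9, Tes and Lpp were the lowest of these, at -0.74, -0.73 and -0.46. Between knockout and knockdown only Tes passed, with Pdlim1 at 3.86 ± 0.64 SE (adjusted p = 0.0805).

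Genes for binding partners and regulators of the FHL and CSRP proteins were not called in any comparison. Of 28 tested, limma called 0 in knockout (by unadjusted p under 0.05, 4 higher and 0 lower), 0 in knockdown (0 and 1) and 0 between the deficient groups (7 and 0). Over all genes 7.33% had such a p higher and 5.5% lower in knockout, and 7.12% and 6.99% in knockdown. Between the deficient groups 17.9% had one, 9.05% higher and 8.87% lower. Without overlap, 7 partner genes were higher and 1 lower in knockout (25% and 3.57%, against 13.2% and 15.3% of all genes). In knockdown 2 were higher and 4 lower (7.14% and 14.3%, against 17.5% and 12.9%). Between the deficient groups 13 were higher and 4 lower (46.4% and 14.3%, against 17.8% and 27.2%). Itga5, the fibronectin receptor subunit, stood at 1.59 ± 0.234 SE in knockout against wild type (adjusted p = 0.0784). Itga5 was called there in 2 of 17 alternatives, and in 1 of 17 for knockout against knockdown. Its arrays read 8.30, 9.08 and 8.99 in wild type, 10.35 and 10.41 in knockout and 8.94 and 8.90 in knockdown. Mrtfa, the actin-regulated coactivator of SRF, stood at 0.92 ± 0.197 SE in knockout (adjusted p = 0.152) and at 0.30 in knockdown. Id3, an inhibitor of differentiation factors, stood at -0.80 ± 0.154 SE in knockdown (adjusted p = 0.162).

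Actin and SRF target genes had a median difference above 0 in knockout and below 0 in knockdown, without any gene passing in either. Of 31 tested, 22 had a difference above 0 in knockout (median 0.13) and 27 below 0 in knockdown (median -0.16), beside medians of -0.03 and 0.03 over all genes. Arrays were higher without overlap in knockout for 10 (32.3%) and lower for 1 (3.23%), against 13.2% and 15.3% of all genes. In knockdown they were higher for 0 and lower for 10 (32.3%), against 17.5% and 12.9% of all genes. Some members lay below wild type in both groups, such as Egr1, an immediate-early transcription factor gene, at -0.69 in knockout and -0.08 in knockdown. Limma called 0 of them in either comparison. At an unadjusted p under 0.05 there were 5 higher and 1 lower of the 31 in knockout, against 7.33% and 5.5% of all genes. In knockdown there were 0 higher and 4 lower, against 7.12% and 6.99%. Between knockout and knockdown 22 of 31 were higher without overlap (71%, against 17.8% of all genes), and 1 passed: Tpm2, a tropomyosin that stabilises actin filaments, at 1.53 ± 0.185 SE (adjusted p = 0.0488, called in 4 of 17 alternatives). Ankrd1, a stretch-induced nuclear cofactor, stood at 9.48, 9.73 and 10.12 in wild type, 9.85 and 9.03 in knockout and 7.51 and 7.40 in knockdown, with a difference from wild type of -2.32 ± 0.283 SE in knockdown (adjusted p = 0.1) and -0.34 in knockout. Cnn1, a smooth muscle calponin, read 9.02 and 6.84 on the knockdown arrays, which overlapped wild type at 8.75 to 10.07. Its knockout arrays, at 10.59 and 10.40, lay above both other groups. The knockout difference was 1.02 ± 0.677 SE from wild type (limma adjusted p = 0.56) and 2.56 ± 0.741 SE from knockdown (limma adjusted p = 0.176).

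**Figure D4:**
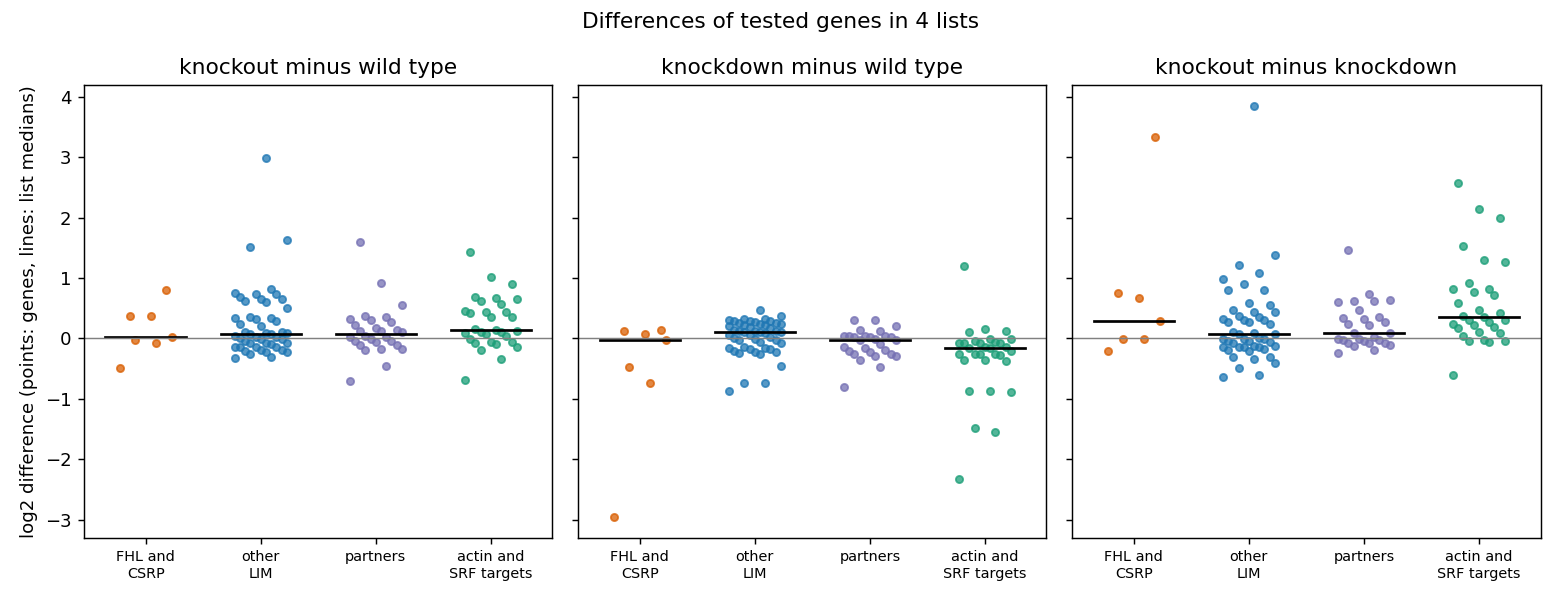
Log2 difference (y axis) of each tested gene, shown as a point, in 4 lists (x axis) and 3 comparisons, with a line at each list median. The actin and SRF target list has a median of 0.13 in knockout and -0.16 in knockdown, and the lowest point among the FHL and CSRP genes in knockdown is Fhl1.

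Marker levels were measured beside these lists. All 12 fibroblast markers were above the array median on every array, and limma called 0 of them in any comparison. In knockout 7 of the 12 were higher than wild type without overlap and 1 lower, against 13.2% and 15.3% of all genes, with a median difference of 0.44. By unadjusted p under 0.05, 6 were higher and 1 lower, against 7.33% and 5.5% of all genes. The lower one was Pdgfra, a platelet-derived growth factor receptor, at 10.98 to 11.40 in wild type, 9.50 and 10.04 in knockout and 11.59 and 10.68 in knockdown (knockout difference -1.42 ± 0.305 SE, adjusted p = 0.152). The mean level of 10 smooth muscle markers was 7.33 to 7.84 in wild type, 7.83 to 8.29 in knockout and 7.23 to 7.46 in knockdown, and it shares 6 genes with the actin and SRF target list. Fibroblast and smooth muscle markers thus had positive median differences in knockout, where Fhl2 and Csrp1 were highest, and the part of either in those differences was not tested. Skeletal muscle markers averaged 5.24 to 5.42 and cardiac markers 5.42 to 5.75 over all arrays. The myogenic regulators Myod1, at 5.40 to 5.98, and Myog, at 4.61 to 5.29, were close to the array medians. Above the median on every array were 4 of 12 skeletal and 3 of 10 cardiac markers, and 6 of each list were below it on every array. The highest were Acta1, at 6.55 to 8.08 with 8.08 and 7.53 in knockout, and Tnnt2, at 6.19 to 8.46. Endothelial, macrophage and epithelial markers averaged 4.50 to 5.09. The defining Pecam1, Ptprc and Epcam reached at most 4.72, while the highest of each list reached 5.98 (Tek), 5.95 (Cd14) and 6.33 (Krt8). Lyz2, a macrophage lysozyme, read 4.03 to 4.25 in wild type, 5.59 and 4.81 in knockout and 3.96 and 4.26 in knockdown (knockout difference 1.09 ± 0.236 SE, adjusted p = 0.152). Tnc, the targeted gene, read 10.89 to 11.42 in wild type, 8.05 and 8.51 in knockout, and 7.34 and 6.52 in knockdown. Both falls passed, at -2.95 ± 0.295 SE in knockout (limma adjusted p = 0.042) and -4.30 ± 0.295 SE in knockdown (limma adjusted p = 0.0339), each in 6 of 17 alternatives. It was not established whether the Tnc probe set covers the exons removed in the knockout.

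Fhl1 is X-linked, and sex-linked genes differed between clones of a group. Xist was high on knockout array 2 alone, at 8.80 against 3.51 to 3.77 elsewhere. The Y-linked Uty was at 3.14 on knockout array 2, at 4.98 on knockdown array 2, and at 6.75 to 8.02 elsewhere. Knockout array 1, with Xist at 3.77 and Uty at 7.57, thus had male signals and knockout array 2 female ones, which 1 animal would not give. Without knockout array 2 and knockdown array 2 the Fhl1 difference was -2.76 in knockdown and 0.64 in knockout, and that of Fhl3 in knockdown -0.73. Fhl1 read 7.66 on knockdown array 1 and 7.27 on knockdown array 2, which differ in the Y-linked signal. The part of the sex-linked differences in the Fhl1 values was not tested. Over 518 X-linked genes tested, the median difference was -0.07 in knockdown and -0.04 in knockout, beside 0.03 and -0.03 over all genes. In knockdown 320 of the 518 lay below 0, against 7249 of 16801 over all genes. In knockout 325 of the 518 did, against 9624 of 16801.

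The values of nearby genes on the X chromosome are given beside those of Fhl1, which was chosen for its low knockdown signal. Of 9 protein-coding genes around Fhl1 that are given here, 7 passed the filter on low signal. Their differences in knockdown lay between -0.41 for Htatsf1 (adjusted p = 0.308) and 0.15 for Vgll1 (adjusted p = 0.601). Htatsf1, Mmgt1 (-0.37) and Map7d3 (-0.14) had both knockdown arrays below all wild-type arrays, as had 12.9% of all genes. Brs3 (0.11) and Vgll1 lay above 0, with signals of 4.16 to 4.75 over all arrays. In knockout Map7d3 differed from wild type by 0.82, more than Fhl1 at 0.38. Its signals were 3.53 to 3.61 in wild type, 3.47 and 3.41 in knockdown, and 4.21 and 4.58 in knockout. Because the 25th percentile of the arrays lay at 3.98 to 4.05, Map7d3 passed the filter through its knockout arrays alone, and no test is given for it.

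**Figure D5:**
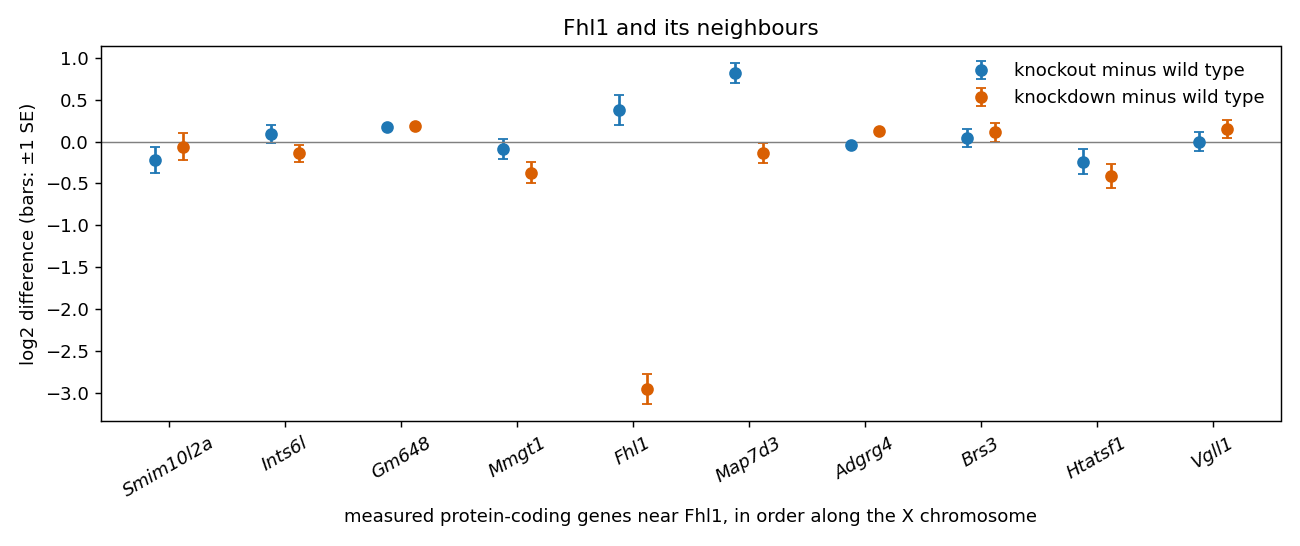
Log2 difference from wild type (y axis, bars of 1 SE) in knockout and knockdown for Fhl1 and 9 protein-coding genes around it, in order along the X chromosome and evenly spaced; genes below the filter have no bars. In knockdown Fhl1, chosen for this value, is at -2.96 and the neighbours past the filter lie between -0.41 and 0.15, while in knockout Map7d3 at 0.82 is above Fhl1 at 0.38.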

How the data were processed

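RNA of 7 fibroblast clones was hybridised to Affymetrix whole-transcript arrays. The deposited values are log2 signals per probe set, and per the submitters' processing notes the authors used affy under R 2.8.0. How they were summarised and normalized is not given in the sources used here. Values of 1.81 to 13.7 show a log2 scale. Of 34760 probe sets, 21640 carried a single gene symbol, covering 19937 genes, and the brightest probe set was kept for the 954 genes with several. Symbols were updated through RefSeq (GRCm38.p6, 21553 matched).

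Genes had to exceed an array's 25th percentile on 2 or more arrays, and were then tested with limma 3.58.1 in R 4.3.3 (group means over 7 arrays, lmFit and eBayes, two-sided, 4 residual degrees of freedom, a prior of 2.06). P-values were Benjamini-Hochberg adjusted over 16801 genes, and an adjusted p under 0.05 is called. The code was tested on simulated data. The number of arrays limits the precision.

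The members and lists were chosen with earlier results of these data known. Named genes were the members, Tnc, called list genes and up to 3 each way per list whose arrays did not overlap, the 5 genes most like Fhl1 and 3 most opposed by Pearson correlation, the 1 gene most like each other member, and up to 5 neighbours each side of Fhl1 (1 is not reported here). Markers and sex-linked genes were named outside this rule. Alternatives were other filters, normalizations, probe set summaries and fits, a replicate block, and leaving out arrays.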

Additional observations from a re-analysis of the deposited data

Results flagged for a closer look

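Differences between the effects of knockout and knockdown drew attention for several genes. By limma's test of the difference itself, Fhl3 (0.76, adjusted p = 0.0495), Tes (0.80, adjusted p = 0.0381) and Tpm2 (1.53, adjusted p = 0.0488) were higher in knockout than in knockdown, and in each both knockout arrays lay above both knockdown arrays. Tes was a list gene but also the gene most like Fhl1 over these same arrays. Its difference was favoured by that choice, and its pass is not read as separate evidence. For other genes every array of one deficient group lay above the wild-type arrays and every array of the other below them. Fhl1 was of this kind, with 3.34 between knockout and knockdown, which was not tested because Fhl1 was chosen by its knockdown signal. Acta1, an actin gene, was higher in knockout but did not pass limma's test of the difference (1.16, adjusted p = 0.0706). The LIM-domain genes Limd2 (-0.61, adjusted p = 0.152) and Lmx1b (-0.41, adjusted p = 0.184) were lower and did not pass it either. Osgin2 was higher in knockout (0.70) and Kiz lower (-0.35). Both were picked by their correlation with Fhl1 over these same arrays, knockdown included. A difference between knockout and knockdown was thus favoured by the choice, and their tests are not read. Map7d3 differed by 0.95, but passed the filter on low signal only through its knockout arrays, so its test is not read. Of all genes tested, 1.34% had both knockdown arrays below and both knockout arrays above wild type.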

How the results depend on the processing

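With 2 or 3 arrays per group, single arrays decide which genes pass. No member was called in knockout against wild type under any of 17 alternatives. The count of members called between knockout and knockdown, 1 as reported, was 0 with no filter, quantile normalization, the mean over probe sets, array weights, a mean-variance trend, the replicate block or only the groups compared, and 0 with any array left out. It stayed at 1 with the stricter filter and median centring. Where a group was left with 1 array, that array was assumed to vary like the others. The Fhl1 difference in knockdown stayed between -3.15 and -2.76 with arrays left out and between -2.99 and -2.93 otherwise. Directions turned only for members near 0. In knockout against wild type, Fhl3 read -0.0049 with quantile normalization, Fhl4 0.02 with quantile normalization and 0.02 with median centring, and Csrp3 0.01 with the replicate block. Between knockout and knockdown, Fhl4 read 0.06 with quantile normalization and 0.07 with median centring, and Csrp2 0.06 with median centring. With arrays left out, knockout differences ranged from -0.06 to 0.11 for Fhl3, -0.09 to 0.04 for Fhl4 and -0.25 to 0.11 for Csrp3, and those between knockout and knockdown from -0.07 to 0.06 for Fhl4 and -0.21 to 0.18 for Csrp2. The causes were not tested. Deviations of same-numbered arrays correlated at -0.07 to 0.20. In a group of 2 arrays the deviations mirror each other, so these values cannot tell whether the numbers pair the clones. Over all genes, the 63 calls between knockout and knockdown became 0 to 137, and the 28 in knockout 1 to 79.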

Other observations

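The gene most like each remaining member differed from member to member, and each followed its member's level over all 7 arrays. For Fhl2 it was Fam118a (r = 0.990), at 7.29, 7.77 and 7.59 in wild type, 8.24 and 8.52 in knockout and 7.55 and 7.81 in knockdown. For Csrp1 it was Bbx (r = 0.994), a transcription factor gene with an HMG box, 0.29 above wild type in knockout and 0.03 in knockdown. For Fhl3 it was Rab23 (r = 0.985), a small GTPase gene known from hedgehog signalling, which read 9.39, 9.25 and 9.32 in wild type and 8.82 and 8.88 in knockdown. For Csrp2 it was Tmem128 (r = 0.988), which like Csrp2 was highest on wild-type array 1, at 8.54 against 7.85 to 8.15 elsewhere. For Csrp3 it was Fam151b (r = 0.990) and for Fhl4 Prrc2c (r = 0.954). These are descriptions over arrays that share their groups, chosen as the closest of 16801 genes.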
